A study of Homo sapiens with 18 samples.

Results

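The genes described here are 10 known targets of the transcription factor NRF2, followed in cell variants of 2 human pancreatic ductal adenocarcinoma (PDAC) lines. They are AKR1B10, AKR1C1, AKR1C2, AKR1C3, NQO1, GCLM, TXNRD1, SRXN1, HMOX1 and SLC7A11, taken by gene symbol, and all 10 were found among the 40266 symbols of the table. RNA-seq was done on 18 libraries in 6 groups of 3, for each of the lines Panc1 and Panc89 the parental cells, a Holoclone and a Paraclone. Panc1 comes from a primary tumor and was the study's mesenchymal-like model, and Panc89 comes from a lymph node metastasis and was its epithelial model. Holoclone cells had been picked as colonies with stem cell features and Paraclone cells as colonies without them, after seeding as single cells. Each Holoclone or Paraclone group was a single clone (Panc1 Holoclone clone 9, Panc1 Paraclone clone 5, Panc89 Holoclone clone 4 and Panc89 Paraclone clone 3), and its 3 libraries were 3 passages of that clone, so the colony type and the individual clone cannot be told apart. Cells of all groups were grown in the same medium with serum and without drug or oxidant, so every value is a resting level, and p-values measure the spread between passages.

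NRF2, the product of NFE2L2, is made all the time and is marked for degradation by KEAP1, the adaptor of a CUL3 and RBX1 ubiquitin ligase. Oxidants and electrophiles modify KEAP1, whereupon NRF2 accumulates, pairs with a small MAF protein and binds antioxidant response elements near its target genes. BACH1 competes for the same elements and is a well known repressor of HMOX1. The targets reduce aldehydes and quinones, supply glutathione and thioredoxin and degrade haem. Because NRF2 is controlled mainly as a protein, the mRNA of NFE2L2 does not measure its activity.

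The deposited values were log2(TPM + 1), where TPM is a transcript abundance per library, corrected for transcript length. Converted back, the TPM of a library summed to between 985339 and 988066, 12932 to 14199 genes reached 1 TPM, the mitochondrial genome contributed 5.62% to 9.44% of the TPM, and replicates of a group correlated across genes (which are not independent) with r between 0.954 and 0.992. TPM carry no read counts, so the depth and the counting error of a value are unknown. Groups were compared with limma on the 16093 genes that reached 1 TPM in 3 or more libraries, and a gene passed at an adjusted p under 0.05 (Benjamini-Hochberg over all genes tested). A log2 fold change given here is a difference of means on the log2(TPM + 1) scale with its SE, which shrinks differences of genes whose TPM is about 1 or less. Over all genes the median difference was 0.19 for Panc1 Holoclone against Paraclone cells, 0.092 for the same comparison in Panc89 and -0.18 for parental Panc89 against parental Panc1 cells, against which member changes should be read. Upper quartile or median-of-ratios scaling took these medians to 0.0068 and 0 in Panc1 and moved the share of higher genes among those that passed from 73.3% to 51.3% and 47.7%. In Panc89 this share moved from 62.8% to 52.5% and 49.3%.

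Markers of the labelled cell types were present in part. Of the 6 ductal epithelial genes, 4 were higher and 1 lower in parental Panc89 than in parental Panc1 cells, 4 were higher and 2 lower between Holoclone cells, and 3 were higher and 0 lower between Paraclone cells. KRT7, EPCAM and CDH1 were higher in all 3 comparisons, CDH1 averaging 75.3 to 98.0 TPM in Panc89 groups and at most 2.84 TPM in Panc1 groups. KRT8 was lower in parental (-0.83) and Holoclone (-1.71) cells of Panc89, and KRT18 was lower in Holoclone cells (-0.95). Of the 4 mesenchymal genes, VIM averaged 2465 to 4318 TPM in Panc1 and at most 0.36 TPM in Panc89 groups and ZEB1 was also lower in Panc89 in all 3 comparisons, whereas ZEB2 (1.31) and CDH2 (0.99) were higher in Panc89 than in Panc1 Paraclone cells. Of the 4 fibroblast genes COL1A1 alone reached the filter, and it was higher in Panc89 in all 3 comparisons (0.83, 0.85 and 3.69 in parental, Holoclone and Paraclone cells), while DCN averaged at most 0.10 TPM in any group. All 3 acinar genes summed to at most 1.36 TPM in any library, and 0 of 3 reached the filter. The 4 leukocyte genes summed to at most 5.65 TPM in any library. Endothelial genes were low except in parental Panc89 cells, where PECAM1 averaged 60.1 TPM while VWF averaged 0.11 TPM, and the sum of the 3 genes was 55.2 to 69.1 TPM there against 1.01 to 2.16 TPM in Panc89 Holoclone and 2.95 to 8.90 TPM in Panc89 Paraclone libraries. Its part in comparisons with parental Panc89 cells was not tested. In bulk RNA, fewer cells that express a gene and less RNA per cell cannot be told apart.

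The AKR1C genes lie side by side on the short arm of chromosome 10 (GRCh38, GENCODE 44), AKR1C1 at chr10:4963253-4983283 on the plus strand, AKR1C2 at chr10:4987775-5018031 on the minus strand and AKR1C3 at chr10:5035354-5107686 on the plus strand. AKR1B10 is at chr7:134527567-134541412 (plus), NQO1 at chr16:69706996-69726668 (minus), GCLM at chr1:93885199-93909456 (minus), SLC7A11 at chr4:138164097-138242349 (minus), TXNRD1 at chr12:104215779-104350307 (plus), SRXN1 at chr20:646615-653200 (minus) and HMOX1 at chr22:35380361-35394214 (plus). All 10 are protein-coding. Sequence shared with relatives limits how well reads can be assigned to some of them. Of the 31-base words of the AKR1C2 transcript, 58.2% also occur in AKR1C1 transcripts, and 28.5% of those of AKR1C1 occur in AKR1C2. For AKR1B10, 21.3% of the words occur in AKR1B15. For SRXN1, 90.6% are shared, mainly with an overlapping readthrough gene (ENSG00000270299), so its level may include reads that were split with that gene. TXNRD1 and HMOX1 share no such word with another gene.

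Antioxidant response elements were looked for as the letters TGACNNNGC, the core that NRF2 with a small MAF protein is known to prefer, on either strand in the 2000 bases before each transcription start. RefSeq starts on GRCh38 were at hand for 7 of the 10 genes, AKR1C1, AKR1C2, AKR1C3, NQO1, GCLM, TXNRD1 and SRXN1. The letters occurred before 6 of these 7 and before 51.8% of 35103 promoters of all genes, so a match alone says little. The stricter form TGACTCAGC, which is contained in the broader one, occurred in 2.72% of promoters and before 1 of the 7 genes, NQO1. A gene counted if any of its starts had a match, whereas promoters were counted singly, so the 2 shares differ in unit. A choice of matches is shown for the 6 genes that have any, with the core in capitals on the coding strand of the gene and 10 bases to each side. A core that begins with GC is the same element on the opposite strand.
NQO1, chr16:69726997-69727025, minus strand: gcagtcacagTGACTCAGCagaatctgag
GCLM, chr1:93909446-93909474, minus strand: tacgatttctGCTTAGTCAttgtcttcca
TXNRD1, chr12:104286920-104286948, plus strand: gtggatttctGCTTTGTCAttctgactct
TXNRD1, chr12:104215670-104215698, plus strand: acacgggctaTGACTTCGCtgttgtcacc
AKR1C1, chr10:4961536-4961564, plus strand: ttccttgtatGCCTTGTCAttttatttta
AKR1C2, chr10:5005684-5005712, minus strand: ttctttgtatGCCTTGTCAttttattttt
AKR1C3, chr10:5092996-5093024, plus strand: aaaccctaagGCCTTGTCAgcaattttct
Counted from the transcription start, the first base of the core is at -455 in NQO1, at -34 in GCLM and at -102 and -99 of 2 different starts in TXNRD1. In AKR1C1 and AKR1C2 it is at -1869 and -1845, in stretches that read nearly alike, and in AKR1C3 at -1408 of 1 of its starts. Further matches that are not shown lie at -1811 in AKR1C2, at -1838 in GCLM and at -1502 in TXNRD1. These are letter matches, not measured binding.

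All 10 genes were above the filter, but the 4 aldo-keto reductases were above it because of Panc89 alone, being under 1 TPM in each of the 9 Panc1 libraries. Holoclone cells were first compared with Paraclone cells within each line. In Panc89, 6 of the 10 were higher in Holoclone cells (AKR1C1, AKR1C2, AKR1C3, NQO1, SRXN1 and SLC7A11) and 1 was lower (HMOX1), where 35.7% of all genes passed, 22.4% higher and 13.3% lower. Libraries of the 2 groups did not overlap for 7 of the 10, against 40.8% of all genes. In Panc1, 3 of the 10 were lower in Holoclone cells (NQO1, GCLM and HMOX1) and 0 were higher, where 37.3% of all genes passed, 27.4% higher and 9.97% lower. Here the groups did not overlap for 4 of the 10, against 51.3% of all genes. The median change of the 10 genes was 0.95 in Panc89, against 0.092 for all genes, and -0.12 in Panc1, where 4 of the 10 were under 1 TPM, against 0.19 for all genes. When the 2 changes were subtracted, NQO1 and SLC7A11, 2 of the 6 genes detected in both lines, had a greater Holoclone change in Panc89 than in Panc1 and 0 had a smaller one, where 35.1% of all genes passed, 14.8% greater and 20.4% smaller. The 4 aldo-keto reductases had no measurable change in Panc1 and are left out of this count.

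**Figure D1:**
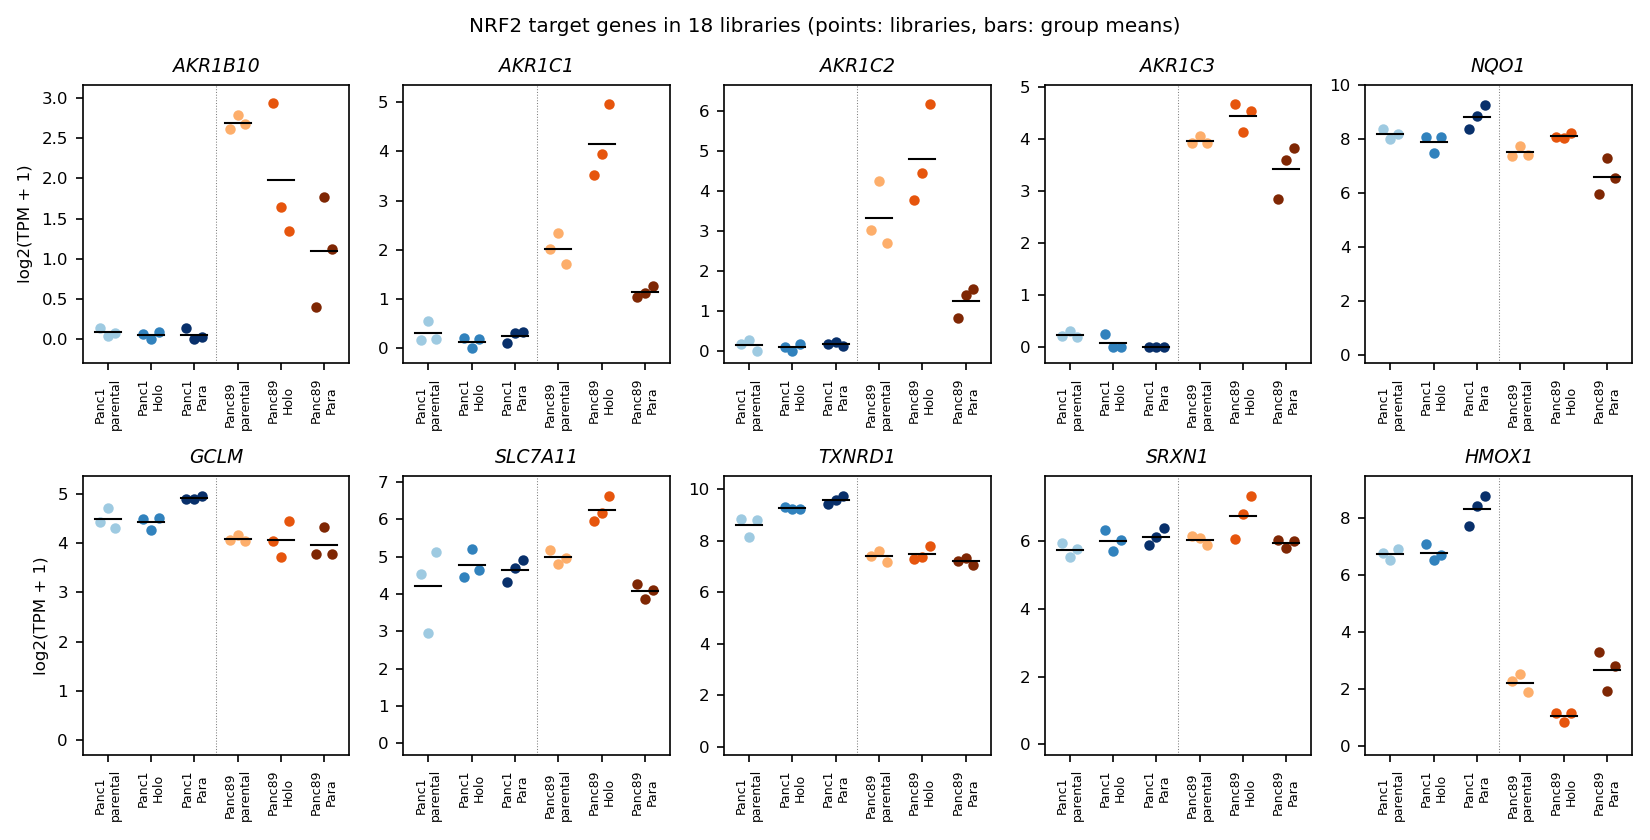
Level of each of the 10 NRF2 target genes in the 18 libraries, as log2(TPM + 1) on the y axis, for the 6 groups on the x axis (Holo, Holoclone. Para, Paraclone). Points are libraries and black bars are group means. The 4 aldo-keto reductases lie near 0 in Panc1 libraries, and HMOX1 is at least 6.53 in every Panc1 library and at most 3.29 in every Panc89 library.

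**Figure D2:**
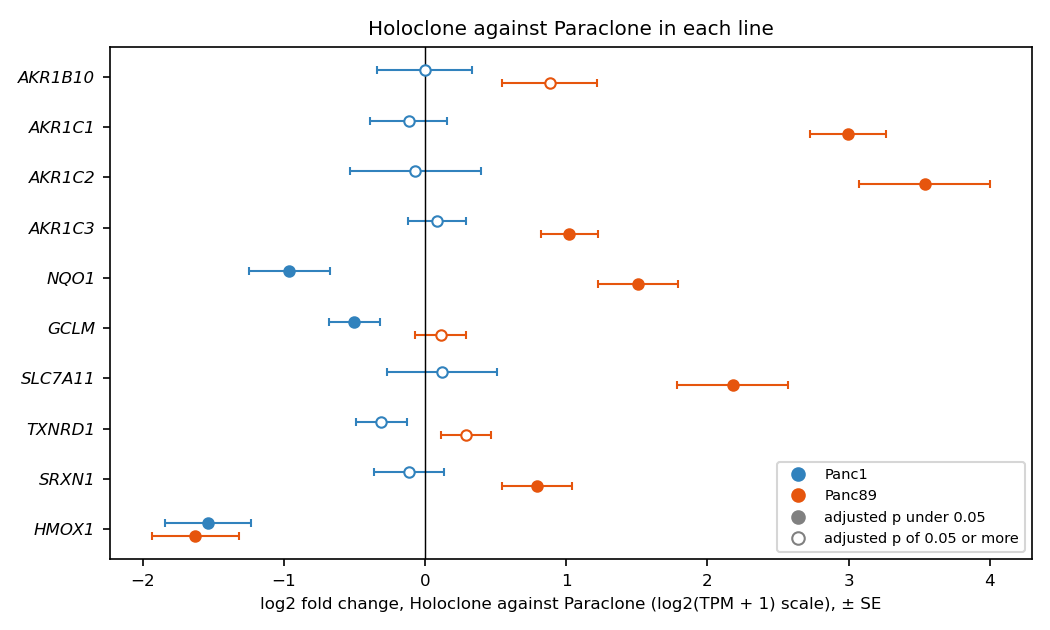
Log2 fold change of Holoclone against Paraclone cells (x axis, log2(TPM + 1) scale, bars are SE) for each gene in Panc1 and in Panc89. Filled points passed the test. AKR1C1, AKR1C2 and SLC7A11 lie at 3.00, 3.54 and 2.18 in Panc89, NQO1 lies on opposite sides in the 2 lines, and HMOX1 lies at -1.54 and -1.63.

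AKR1C1 and AKR1C2 encode reductases that convert steroids and reactive aldehydes. AKR1C1 was at 10.5, 14.4 and 30.2 TPM in the 3 Panc89 Holoclone libraries, at 3.03, 4.07 and 2.26 TPM in the parental ones and at 1.06, 1.18 and 1.42 TPM in the Paraclone ones. The 3 groups did not overlap, and Holoclone replicate 3 was the highest library. Holoclone cells thus stood above Paraclone cells by 3.00 ± 0.27 (SE, n = 3 and 3, adjusted p = 5.88e-07), a 15.0-fold ratio of mean TPM. They also stood above parental cells by 2.13 ± 0.27 (adjusted p = 3.42e-05), while Paraclone cells fell by 0.87 ± 0.27 against parental cells (adjusted p = 0.034). The last of these calls was lost when any of 5 of the 6 libraries was left out, with adjusted p up to 0.127.

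AKR1C2 was at 12.6, 20.9 and 70.6 TPM in Panc89 Holoclone, at 7.07, 17.97 and 5.53 TPM in parental and at 0.78, 1.61 and 1.92 TPM in Paraclone libraries. Holoclone replicate 3 and parental replicate 2 were the high libraries of their groups, and Holoclone and parental cells overlapped while Paraclone cells lay below both. The difference between Holoclone and Paraclone cells was 3.54 ± 0.46 (adjusted p = 2.58e-05), a 24.1-fold ratio of mean TPM, and was 2.86 at the lowest when 1 library was left out. Against parental cells, Paraclone cells fell by 2.07 ± 0.46 (adjusted p = 0.00483). The difference between Holoclone and parental cells (1.47 ± 0.46, adjusted p = 0.0297) was lost in most alternatives, and without Holoclone replicate 3 it was 0.79 (adjusted p = 0.138).

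AKR1C3, which makes active androgens and prostaglandin F, moved least of the 3. It was at 24.4, 16.6 and 22.0 TPM in Panc89 Holoclone, at 14.2, 15.6 and 14.1 TPM in parental and at 6.18, 11.1 and 13.1 TPM in Paraclone libraries. The 3 groups did not overlap. Holoclone cells were above Paraclone cells by 1.02 ± 0.20 (adjusted p = 0.001, or 0.0645 when only these groups were fitted), and neither differed from parental cells past the threshold (0.48 ± 0.20, adjusted p = 0.101, and -0.54 ± 0.20, adjusted p = 0.0738). In Panc1, AKR1C3 was listed at 0 in all 3 Paraclone libraries and in 2 of the 3 Holoclone libraries.

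Summing the 3 AKR1C genes avoids the question of which of them a shared read belongs to. The sum was 47.5, 51.9 and 123 TPM in Panc89 Holoclone, 24.3, 37.6 and 21.9 TPM in parental and 8.01, 13.9 and 16.5 TPM in Paraclone libraries. The groups did not overlap, and the sum differed between Holoclone and Paraclone cells by 2.36 ± 0.33 (adjusted p = 4.74e-05), between Holoclone and parental cells by 1.28 ± 0.33 (adjusted p = 0.00987) and between Paraclone and parental cells by -1.08 ± 0.33 (adjusted p = 0.0297). The listed shares of the 3 genes differed as well, but they depend on how shared reads were split. AKR1C3 was 77.1% to 79.8% of the sum in Paraclone, 41.4% to 64.4% in parental and 17.9% to 51.3% in Holoclone libraries. AKR1C1 was 22.1% to 27.8% in Holoclone, 10.3% to 12.5% in parental and 8.54% to 13.2% in Paraclone libraries.

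**Figure D3:**
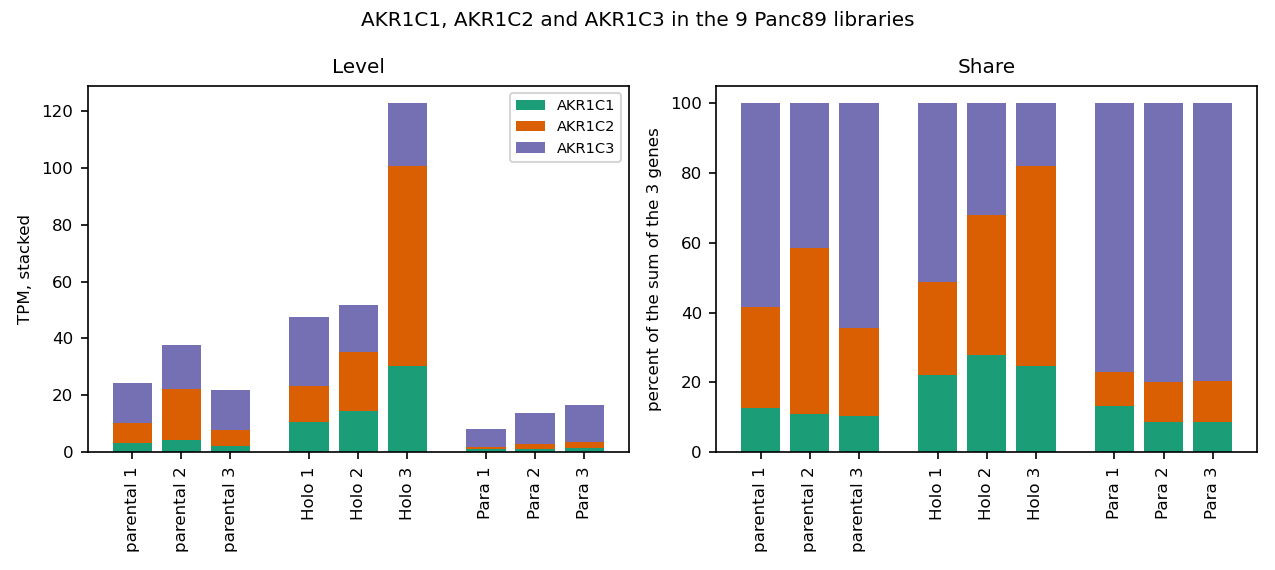
AKR1C1, AKR1C2 and AKR1C3 in the 9 Panc89 libraries, as stacked TPM (left, y axis in TPM) and as percent of their sum (right). Each bar is 1 library. Holoclone replicate 3 is the tallest bar at 123 TPM, and AKR1C3 fills over 77% of each Paraclone bar.

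AKR1B10, which reduces retinal and other aldehydes, differed from the AKR1C genes in that its mean was highest in parental Panc89 cells, not in Holoclone cells. It was at 5.12, 5.90 and 5.38 TPM in parental Panc89, at 6.65, 2.13 and 1.54 TPM in Holoclone and at 0.32, 2.40 and 1.17 TPM in Paraclone libraries. Holoclone and Paraclone libraries overlapped, and only Holoclone replicate 1 reached the parental level. As with AKR1C1 and AKR1C2, Paraclone cells fell against parental cells, here by 1.60 ± 0.34 (adjusted p = 0.00308). Between Holoclone and Paraclone cells the difference was 0.88 ± 0.34 (adjusted p = 0.0525), which passed without Holoclone replicate 3 (1.20, adjusted p = 0.0153) or without Paraclone replicate 2 (1.22, adjusted p = 0.00902). Adding the near copy AKR1B15, which averaged at most 0.17 TPM in any group, gave 0.84 ± 0.33 (adjusted p = 0.0568).

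In Panc1, each of the 4 reductases was under 1 TPM in every library, the highest value being 0.47 TPM for AKR1C1 in parental replicate 2. Their levels between the lines are therefore given as a description. On average AKR1C3 was at 0.18 TPM in parental Panc1 and at 14.6 TPM in parental Panc89 cells, AKR1C2 at 0.11 and 10.2 TPM, AKR1B10 at 0.059 and 5.47 TPM and AKR1C1 at 0.24 and 3.12 TPM. In Panc89 Holoclone cells the AKR1C sum averaged 74.1 ± 42.3 TPM (SD, n = 3), against 0.23 ± 0.21 TPM in Panc1 Holoclone cells.

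NQO1 encodes a quinone reductase and is a standard readout of NRF2. In Panc89 it was at 271, 264 and 302 TPM in Holoclone, at 165, 212 and 172 TPM in parental and at 61.1, 159 and 93.9 TPM in Paraclone libraries. The groups did not overlap, and Paraclone replicate 1 was the lowest library. In Panc1 it was at 271, 178 and 270.0 TPM in Holoclone, at 329, 256 and 294 TPM in parental and at 330.4, 469 and 626 TPM in Paraclone libraries. Here Paraclone cells were above the other groups and Holoclone and parental cells overlapped, Holoclone replicate 2 being low and Paraclone replicate 3 high. Holoclone cells were above Paraclone cells by 1.51 ± 0.28 in Panc89 (adjusted p = 6.75e-04) and below them in Panc1 (-0.96 ± 0.28, adjusted p = 0.0145), so that the changes differed by 2.47 ± 0.40 (adjusted p = 2.13e-04). The Panc1 call was lost without Holoclone replicate 2 (-0.76, adjusted p = 0.0722) or Paraclone replicate 3 (-0.74, adjusted p = 0.0773), whereas the difference between the lines was at least 2.14 with any library left out, with adjusted p up to 7.85e-04.

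The order of the mean levels of NQO1 ran from Panc1 Paraclone (475 TPM) over parental Panc1 (293 TPM), Panc89 Holoclone (279 TPM), Panc1 Holoclone (239.8 TPM) and parental Panc89 (183 TPM) to Panc89 Paraclone cells (105 TPM). Of neighbours in this order, parental Panc89 and Panc89 Paraclone cells alone passed the test (0.90 ± 0.28, adjusted p = 0.0362). That call was lost in most alternatives, and without Paraclone replicate 1 the change was -0.57 (adjusted p = 0.193).

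SLC7A11 is the cystine carrier of the xc- antiporter, which brings in the cystine needed for glutathione. It was at 61.5, 71.1 and 97.9 TPM in Panc89 Holoclone, at 35.3, 27.1 and 30.1 TPM in parental and at 18.1, 13.5 and 16.4 TPM in Paraclone libraries. The 3 groups did not overlap. Holoclone cells were above Paraclone cells by 2.18 ± 0.39 (adjusted p = 4.58e-04), a 4.81-fold ratio of mean TPM, and above parental cells by 1.27 ± 0.39 (adjusted p = 0.0266), the second call being lost under both scalings (1.17, adjusted p = 0.0539 and 0.0535) and without parental replicate 2 or 3 or Holoclone replicate 2 or 3 (1.08 at the lowest, adjusted p = 0.103). In Panc1 it was at 21.0, 35.6 and 24.1 TPM in Holoclone, at 19.0, 25.1 and 29.1 TPM in Paraclone and at 22.1, 6.77 and 34.1 TPM in parental libraries. These groups overlapped, and parental replicate 2 stood apart as low. The Holoclone change in Panc1 was 0.12 ± 0.39 (adjusted p = 0.866), and that in Panc89 was greater by 2.06 ± 0.55 (adjusted p = 0.00893).

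GCLM, the modifier subunit of glutamate-cysteine ligase, which starts glutathione synthesis, was highest in Panc1 Paraclone cells. It was at 29.0, 28.8 and 30.4 TPM in Panc1 Paraclone, at 21.5, 18.3 and 21.8 TPM in Holoclone and at 20.6, 25.3 and 18.9 TPM in parental libraries. Paraclone cells lay above both other groups, and the Holoclone change was -0.50 ± 0.18 (adjusted p = 0.0395), a call that was lost whichever single library was left out (adjusted p 0.062 to 0.128). In Panc89 all 9 libraries lay between 12.1 and 21.0 TPM and the groups overlapped, with a Holoclone change of 0.11 ± 0.18 (adjusted p = 0.681). The changes in the lines differed by 0.61 ± 0.26 (adjusted p = 0.0757).

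TXNRD1, the cytosolic thioredoxin reductase, was the most abundant of the 10 genes in each of the 3 Panc1 groups. It was at 686, 760.2 and 848 TPM in Panc1 Paraclone, at 639, 601 and 604 TPM in Holoclone and at 459, 278 and 446 TPM in parental libraries. The 3 groups did not overlap, and parental replicate 2 was low. Both clones were above parental cells, by 0.98 ± 0.18 for Paraclone cells (adjusted p = 8.26e-04) and 0.67 ± 0.18 for Holoclone cells (adjusted p = 0.0237), the latter being lost under both scalings and without any 1 Holoclone library or parental replicate 2 (0.44 at the lowest, adjusted p = 0.101). Holoclone cells were not past the threshold against Paraclone cells (-0.31 ± 0.18, adjusted p = 0.199), but passed under both scalings (-0.56 and -0.59, adjusted p = 0.0475 and 0.0391). In Panc89, TXNRD1 was at 155, 166 and 218 TPM in Holoclone, at 169.8, 195 and 144 TPM in parental and at 146, 159 and 132 TPM in Paraclone libraries. These groups overlapped, and Holoclone cells differed from Paraclone cells by 0.29 ± 0.18 (adjusted p = 0.234).

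SRXN1, sulfiredoxin, repairs overoxidised peroxiredoxins. It was at 66.4, 112 and 162 TPM in Panc89 Holoclone, at 70.4, 66.9 and 58.4 TPM in parental and at 65.0, 54.5 and 63.7 TPM in Paraclone libraries. Holoclone replicates 2 and 3 were high, and replicate 1 was just above the Paraclone libraries and within the parental range. The difference from Paraclone cells was 0.79 ± 0.25 (adjusted p = 0.0203), and it was lost with these groups fitted alone (adjusted p = 0.141), under both scalings (0.69 and 0.66, adjusted p = 0.0671 and 0.0828) and without Holoclone replicate 2 or 3 or Paraclone replicate 2 (0.49 at the lowest, adjusted p = 0.114). In Panc1 all 9 libraries lay between 45.3 and 83.7 TPM, and the Holoclone change was -0.12 ± 0.25 (adjusted p = 0.773).

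HMOX1, haem oxygenase 1, which opens haem to biliverdin, iron and carbon monoxide, went the other way from the AKR1C genes. In Panc1 it was at 213, 347 and 438 TPM in Paraclone, at 137, 91.5 and 103 TPM in Holoclone and at 109, 92.5 and 118 TPM in parental libraries. All Paraclone libraries were above the others, and Holoclone and parental libraries overlapped. In Panc89 it was at 8.79, 2.81 and 6.05 TPM in Paraclone, at 1.24, 0.77 and 1.24 TPM in Holoclone and at 3.81, 4.70 and 2.69 TPM in parental libraries. The Holoclone libraries were the lowest, without overlap with either group. Holoclone cells were below Paraclone cells by a log2 fold change of -1.54 ± 0.31 in Panc1 (adjusted p = 0.001) and -1.63 ± 0.31 in Panc89 (adjusted p = 6.83e-04), and both calls held without any single library. The changes in the lines differed by -0.090 ± 0.43 (adjusted p = 0.896). The 1 added before the logarithm shrinks the change in Panc89, where the Holoclone libraries were near 1 TPM. Ratios of mean TPM, Holoclone to Paraclone, were 0.18 in Panc89 and 0.33 in Panc1, so the test does not show equal changes. Paraclone cells of Panc1 were above their parental cells by 1.58 ± 0.31 (adjusted p = 0.00134), and Holoclone cells of Panc89 were below theirs (-1.17 ± 0.31, adjusted p = 0.011, or 0.0507 without parental replicate 2).

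Parental Panc89 cells were then compared with parental Panc1 cells, where 66.0% of all genes passed, 27.5% higher and 38.5% lower, and 73.3% did not overlap between the groups. Of the 6 genes detected in both lines, HMOX1 was lower in Panc89 by a log2 fold change of -4.52 ± 0.31 (adjusted p = 3.09e-09), with means of 3.73 TPM in Panc89 and 107 TPM in Panc1, the widest gap of the 6. TXNRD1 was lower as well (-1.19 ± 0.18, adjusted p = 2.72e-05). NQO1 was at -0.68 ± 0.28 (adjusted p = 0.0472), which was lost under both scalings (-0.51 and -0.43, adjusted p = 0.135 and 0.188) and when any library but Panc89 replicate 2 was left out. GCLM (-0.40 ± 0.18, adjusted p = 0.0652), SLC7A11 (0.78 ± 0.39, adjusted p = 0.0917) and SRXN1 (0.29 ± 0.25, adjusted p = 0.323) did not pass. SLC7A11 varied from 0.15 without the low Panc1 parental replicate 2 to 1.24 (adjusted p = 0.00774) without Panc1 parental replicate 3, and passed under median-of-ratios scaling (1.01, adjusted p = 0.0435).

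Between Holoclone cells of the lines (65.8% of all genes passed, 29.3% higher and 36.4% lower, and 69.0% did not overlap), SLC7A11 was higher in Panc89 (1.49 ± 0.39, adjusted p = 0.00336), SRXN1 was higher by 0.72 ± 0.25 (adjusted p = 0.0182, lost without Panc1 replicate 2 or Panc89 replicate 2 or 3, adjusted p up to 0.119), and TXNRD1 and HMOX1 were lower (-1.78 ± 0.18 and -5.73 ± 0.31). Between Paraclone cells (60.7% of all genes passed, 30.2% higher and 30.4% lower, and 64.0% did not overlap), NQO1, GCLM, TXNRD1 and HMOX1 were all lower in Panc89, with log2 fold changes of -2.23 ± 0.28, -0.96 ± 0.18, -2.38 ± 0.18 and -5.64 ± 0.31. In Holoclone cells the corresponding differences of NQO1 (0.24 ± 0.28, adjusted p = 0.474) and GCLM (-0.35 ± 0.18, adjusted p = 0.101) were not past the threshold.

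The clones were then compared with their parental cells. In Panc1, where 6 of the 10 genes were detected, 1 rose in Holoclone cells (TXNRD1), where 10.9% of all genes passed, 5.87% higher and 5.06% lower. In Paraclone cells 2 rose (TXNRD1 and HMOX1), where 28.6% passed, 7.31% higher and 21.3% lower. The groups did not overlap for 1 of the 10 in Holoclone cells (30.3% of all genes) and for 5 of the 10 in Paraclone cells (42.9% of all genes). Among these 5 is AKR1C3, at 0 TPM in all Paraclone and at 0.14 to 0.24 TPM in parental libraries. Such levels cannot be told from 0, so AKR1C3 does not count as separated. With upper quartile or median-of-ratios scaling, 4 rose in Panc1 Paraclone cells, NQO1 (0.84 and 0.89) and GCLM (0.62 and 0.66) joining them. In Panc89, 3 rose (AKR1C1, AKR1C2 and SLC7A11) and 1 fell (HMOX1) in Holoclone cells, where 24.7% of all genes passed, 16.1% higher and 8.61% lower. In Paraclone cells 4 fell (AKR1B10, AKR1C1, AKR1C2 and NQO1) and 0 rose, where 19.4% passed, 9.37% higher and 10% lower. The groups did not overlap for 5 of the 10 in Holoclone cells (41.2% of all genes) and for 6 of the 10 in Paraclone cells (35.8% of all genes). These comparisons share their parental libraries. Together the 10 genes summed to 743 ± 161 TPM in Panc89 Holoclone, 502 ± 59.3 in parental and 362 ± 54.7 in Paraclone cells (SD, n = 3 each), and to 1078 ± 97.2, 890.5 ± 162 and 1697 ± 359 TPM in the same groups of Panc1, sums that NQO1 and TXNRD1 dominate.

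The regulators of the pathway were examined next, and all 11 were above the filter. NFE2L2 was at 126, 273 and 312 TPM in Panc89 Holoclone and at 116, 99.1 and 120.2 TPM in Paraclone libraries, and at 155, 199 and 174 TPM in Panc1 Holoclone and at 91.9, 110.2 and 105 TPM in Paraclone libraries. Holoclone libraries were above Paraclone libraries in both lines, Panc89 Holoclone replicate 1 only just. The change was 0.98 ± 0.27 in Panc89 (adjusted p = 0.011, or 0.0549 and 0.0621 without Holoclone replicate 2 or 3) and 0.77 ± 0.27 in Panc1 (adjusted p = 0.0373), and the Panc1 call was lost under both scalings (0.53 and 0.50, adjusted p = 0.218 and 0.259) and when any library but Holoclone replicate 1 was left out. The 2 changes differed by 0.21 (adjusted p = 0.718), which does not show that they were equal. NFE2L2 and NQO1 mRNA were both higher in Panc89 Holoclone cells. In Panc1 Holoclone cells NFE2L2 was higher and NQO1 lower, and both Panc1 calls were lost when some single libraries were left out.

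NFE2L1, which encodes a related factor that controls proteasome genes, was at 259, 415 and 524 TPM in Panc89 Holoclone, at 242, 176 and 224 TPM in parental and at 153, 120.1 and 143 TPM in Paraclone libraries. It was higher in Holoclone than in Paraclone cells by 1.47 ± 0.23 (adjusted p = 1.56e-04). In Panc1 the change was -0.17 (adjusted p = 0.616), and the changes differed by 1.64 (adjusted p = 0.00118). KEAP1 was at 69.4, 57.1 and 69.5 TPM in Panc1 Holoclone and at 41.5, 35.5 and 33.6 TPM in Paraclone libraries. It was higher in Holoclone cells by 0.81 ± 0.14 (adjusted p = 3.41e-04) without overlap, against 0.17 (adjusted p = 0.381) in Panc89. The difference of these changes was -0.64 (adjusted p = 0.0213), and it was lost in some alternatives (adjusted p up to 0.056).

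Of the other regulators in Panc1, MAFG (0.65) and CUL3 (0.42) were higher and RBX1 (-0.68) was lower in Holoclone cells, and under both scalings MAFG and CUL3 no longer passed, which left KEAP1 as the 1 regulator that was higher. BACH1, the repressor of HMOX1, differed neither between the clones of Panc1 (0.18, adjusted p = 0.563) nor between those of Panc89 (-0.027, adjusted p = 0.949). Between the parental cells BACH1 was higher in Panc89 (1.44 ± 0.22, adjusted p = 2.62e-05), as was MAFF (2.32 ± 0.36, adjusted p = 3.42e-05), while CUL3 (-0.47), SQSTM1 (-0.72) and BTRC (-1.13) were lower. CUL3 did not pass under median-of-ratios scaling, nor SQSTM1 under either scaling. MAFK passed in none of these comparisons.

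**Figure D4:**
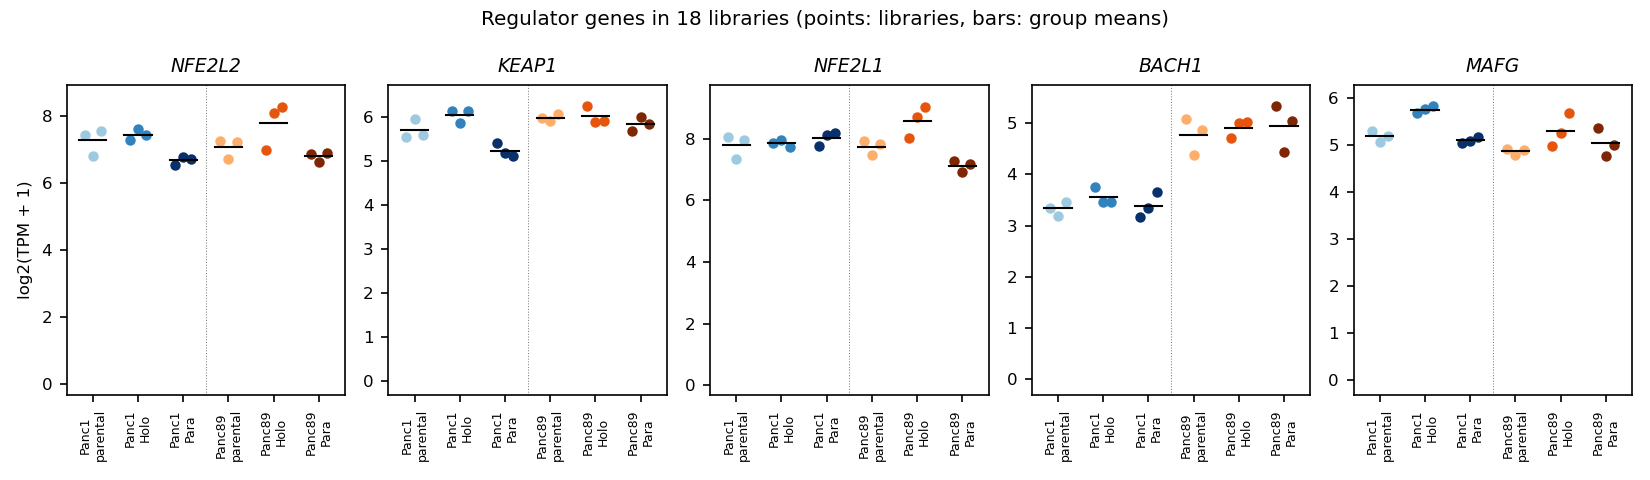
Level of 5 regulator genes in the 18 libraries as log2(TPM + 1) on the y axis, by group on the x axis. Points are libraries and bars are group means. NFE2L2 is higher in Holoclone than in Paraclone libraries of both lines, NFE2L1 shows this in Panc89, and KEAP1 and MAFG show it in Panc1.

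The other genes of the pathway were taken in lists by function. Their counts are to be read against all genes, of which 22.4% were higher and 13.3% lower in Panc89 Holoclone than in Paraclone cells, and 27.4% higher and 9.97% lower in Panc1. Of 19 further glutathione genes, 8 were higher and 4 lower in Panc89 Holoclone than in Paraclone cells, and 2 were higher and 6 lower in Panc1 (median 0.20 and -0.10, against 0.092 and 0.19 for all genes). The selenoprotein relative GPX2, a peroxide-reducing enzyme of epithelia, was at 53.1, 44.7 and 63.1 TPM in Panc89 Holoclone and at 0.24, 0.49 and 0.14 TPM in Paraclone libraries, a change of 5.40 ± 0.18 (adjusted p = 7.36e-12), and was at most 0.21 TPM in any Panc1 library. SLC3A2, the partner chain of SLC7A11, was higher by 2.27 ± 0.25 (adjusted p = 4.58e-06) and GGT1, which cleaves extracellular glutathione, by 1.98 ± 0.34. GPX4, which reduces lipid peroxides, was lower (-0.87 ± 0.12), as were GSTK1 (-0.93) and GPX3 (-0.80). In Panc1, GCLC, the catalytic partner of GCLM, was at -0.58 ± 0.21 (adjusted p = 0.0391, lost when any library but Holoclone replicate 1 was left out), against 1.19 ± 0.21 in Panc89 (adjusted p = 0.00037), with GLRX at -1.86 ± 0.23 and GSTK1 at -0.41, while MGST1 (1.32) and GPX1 (0.39) were higher in Holoclone cells.

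Of 23 genes of quinone, aldehyde and drug metabolism 19 were tested, and 10 were higher and 3 lower in Panc89 Holoclone cells (22.4% and 13.3% of all genes), against 2 higher and 5 lower in Panc1 (27.4% and 9.97%). The Holoclone change was greater in Panc89 than in Panc1 for 13 of the 19 and smaller for 0, against 14.8% and 20.4% of all genes. The counts were the same under both scalings. These 19 include genes under 1 TPM in Panc1, such as ALDH3A1. For such genes the difference restates the change in Panc89, and they were not left out of this count. ALDH3A1, an aldehyde dehydrogenase, was at 1115, 1257 and 897 TPM in Panc89 Holoclone, at 209.9, 282 and 267 TPM in parental and at 4.44, 14.1 and 19.6 TPM in Paraclone libraries. The groups did not overlap, the change being 6.50 ± 0.33 (adjusted p = 8.26e-10), and in Panc1 the gene was at most 0.35 TPM. CYP4F11 (2.91 ± 0.21), a fatty acid hydroxylase, and the carbonyl reductase gene CBR3 (1.96 ± 0.45) were also higher, and ABCC3, an efflux pump, was lower (-1.74 ± 0.29). NQO2, the relative of NQO1, was lower in Holoclone cells of both lines (-1.12 ± 0.19 in Panc1 and -0.86 ± 0.19 in Panc89). In Panc1, CBR1 was lower as well (-1.11 ± 0.21) and AKR1B1 was higher (1.00 ± 0.30).

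NADPH feeds NQO1, the aldo-keto reductases and TXNRD1. Of 8 genes that make it, 3 were higher and 0 lower in Panc89 Holoclone cells, and 2 were higher and 4 lower in Panc1. For all genes the shares were 22.4% and 13.3% in Panc89 and 27.4% and 9.97% in Panc1, so 2 of 8 is near the share of all genes. ME1, malic enzyme, was higher in Panc89 (0.99 ± 0.24, adjusted p = 0.00435) and lower in Panc1 (-1.13 ± 0.24, adjusted p = 0.00152). In Panc1 TKT, a transketolase, was lower in Holoclone cells (-1.20 ± 0.19) and IDH1 was higher (1.55 ± 0.26). In Panc89 TALDO1 (0.89 ± 0.11) and MTHFD2 (0.90 ± 0.26) were higher. Of 12 thioredoxin and peroxiredoxin genes, 3 were higher and 1 lower in Panc89, and 1 was higher and 4 were lower in Panc1 (the same shares of all genes apply), where TXN (-0.66 ± 0.14), PRDX1 (-0.64 ± 0.17) and PRDX6 (-0.69 ± 0.092) were among the lower ones and PRDX2 was higher (1.00 ± 0.23). PRDX6 was lower in Panc89 Holoclone cells too (-0.50 ± 0.092).

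Beside HMOX1, 8 of 9 genes of haem and iron handling were tested, of which 1 was higher and 1 lower in Panc89 Holoclone cells and 2 were higher and 4 lower in Panc1. Of all genes 22.4% were higher and 13.3% lower in Panc89, and 27.4% higher and 9.97% lower in Panc1, which leaves 1 of 8 in each direction in Panc89 and 2 of 8 higher in Panc1 near these shares. FTH1, the ferritin heavy chain that stores iron, was lower in Holoclone cells of both lines, like HMOX1, with -1.52 ± 0.29 in Panc89 (adjusted p = 8.21e-04) and -1.31 ± 0.29 in Panc1 (adjusted p = 0.00243). The constitutive haem oxygenase gene HMOX2 was higher in Panc1 Holoclone cells (0.68 ± 0.15), and BLVRA, biliverdin reductase, was lower (-0.60 ± 0.22). Between the parental cells, BLVRA (-2.91 ± 0.22) was lower and FTH1 (2.57 ± 0.29) higher in Panc89. Of 14 further genes known to be bound or induced by NRF2, 12 were tested, with 6 higher and 3 lower in Panc89 Holoclone cells (2 and 3 under both scalings) and 1 higher and 6 lower in Panc1 (0 and 6 under both scalings). PIR, an iron-binding nuclear protein, moved as NQO1 did, being higher in Panc89 (1.48 ± 0.33, adjusted p = 0.00237) and lower in Panc1 (-1.12 ± 0.33, adjusted p = 0.0138), the latter lost without Holoclone replicate 2 (-0.88, adjusted p = 0.0708) or Paraclone replicate 3 (-0.99, adjusted p = 0.0567). TNFRSF21, a death receptor, averaged 2.70 TPM in Panc1 Holoclone and 161 TPM in Panc1 Paraclone cells (-5.45 ± 0.17).

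SLC7A11 is also a known target of ATF4, the factor of the amino acid response, so the 10 genes of an ATF4 list, ATF4 among them, are set beside it. In Panc89 Holoclone cells 6 were higher and 0 lower than in Paraclone cells, against 22.4% and 13.3% of all genes. The counts were the same under both scalings. At the top were SLC7A5 (2.32 ± 0.17), which pairs with SLC3A2 to carry large amino acids, PSAT1 (1.89 ± 0.28), of serine synthesis, and ASNS (1.82 ± 0.37), asparagine synthetase. In Panc1 5 were higher and 0 lower, against 27.4% and 9.97% of all genes, among them DDIT3 (1.95 ± 0.55), TRIB3 (1.67 ± 0.53) and PHGDH (1.29 ± 0.41). With upper quartile scaling the Panc1 counts were 3 and 1, and with median-of-ratios scaling 2 and 1. SLC7A11 itself was at 0.12 in Panc1.

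Scaling also moved the counts of other lists. Under both scalings, 1 glutathione gene was higher and 7 were lower in Panc1 Holoclone cells, and 8 were higher and 6 lower in Panc89. In Panc1, 1 was higher and 5 were lower among NADPH genes, 1 and 7 among drug metabolism genes and 1 and 4 among haem and iron genes. In Panc89, 2 thioredoxin genes (upper quartile) or 1 (median-of-ratios) were higher and 1 was lower. The shares of all genes given with the lists are without scaling. Scaling made higher and lower genes more even among all that passed in both lines. The scaled counts, here and with the lists above, are therefore a description and are not read against those shares.

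Between the parental cells, 12 of the 19 glutathione genes were higher in Panc89 and 4 were lower, where 27.5% of all genes were higher and 38.5% lower. MGST1, a membrane-bound glutathione transferase (5.65 ± 0.15), and GPX3, a secreted peroxidase (5.55 ± 0.30), led the higher ones, and GSTM3 (-4.44 ± 0.13), GSTM2 (-3.17 ± 0.23) and GSTM4 (-2.57 ± 0.18), cytosolic glutathione transferases, were among the lower ones. Of the 19 drug metabolism genes 8 were higher and 6 lower, with ALDH3A1 at 7.95 ± 0.33 and CES1, a carboxylesterase, at -5.66 ± 0.18. Both counts include genes that averaged under 1 TPM in 1 of the parental groups. Examples are ALDH3A1 in Panc1 (mean log2(TPM + 1) of 0.024) and CES1 (0.14) and GSTM3 (0.22) in Panc89. For such genes the difference is a description of the group where they are high, and they were not left out. Of the 12 other NRF2 genes 8 were higher and 1, PIR, was lower (-0.98 ± 0.33, adjusted p = 0.0158), the same direction as NQO1. TXN (1.38 ± 0.14), PRDX2 (2.36 ± 0.23) and TKT (1.22 ± 0.19) were higher in Panc89.

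**Figure D5:**
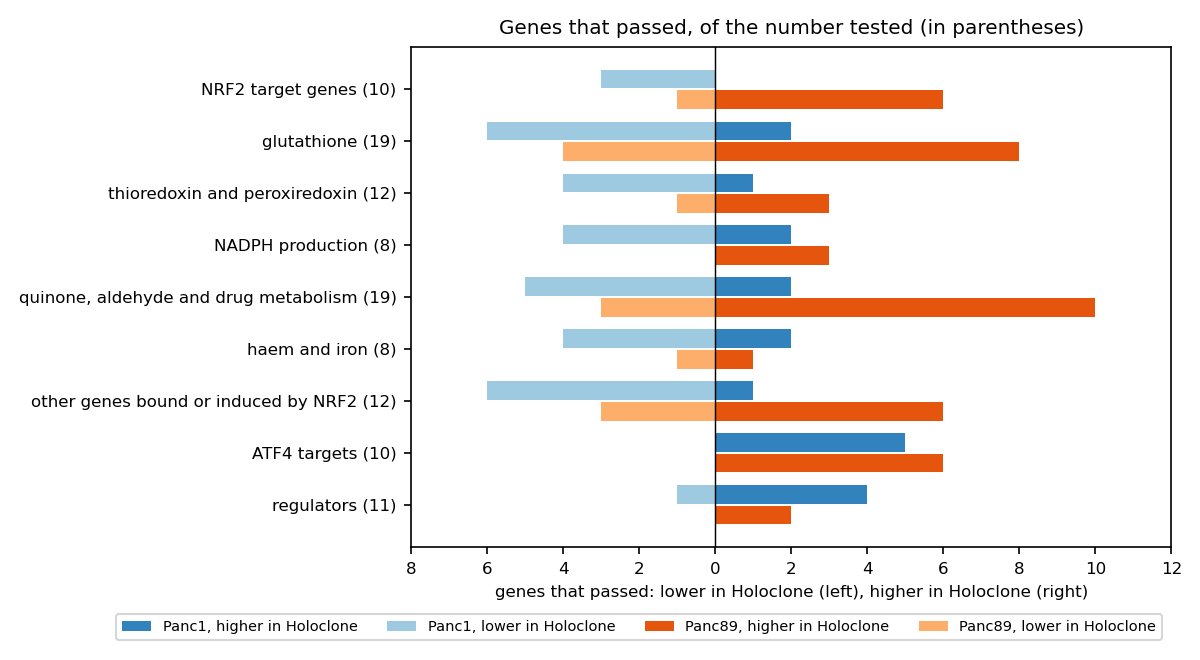
Number of genes that passed between Holoclone and Paraclone cells (x axis, genes higher in Holoclone cells to the right and lower to the left) for the 10 NRF2 target genes and 8 gene lists, with the number tested in parentheses. Dark bars are higher and light bars lower, blue for Panc1 and orange for Panc89. In quinone, aldehyde and drug metabolism 10 were higher in Panc89 and 2 in Panc1.

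Genes with the most similar course over the 18 libraries were sought by Pearson's r of log2(TPM + 1), among tested genes with a mean of at least 10 TPM in their highest group. These r describe libraries that fall into 6 groups and 2 lines. For the AKR1C sum the nearest were TP63 (0.986), AQP3 (0.984), NPIPA8 (0.982), TIMP4 (0.981) and SDR42E1 (0.981). For AKR1B10 they were RASSF10 (0.975), EPN3 (0.971), SERTAD4 (0.965), TRUB2 (0.964) and RASAL1 (0.958), with 0 genes in common with the former. For NQO1 they were PIR (0.937), KCTD17 (0.936), CNTNAP3 (0.911), CDC25B (0.900) and PCYOX1L (0.897), of which PIR is on the list of other NRF2 genes.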

How the data were processed

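RNA was measured in 18 libraries. The authors treated RNA with DNase, made strand-specific mRNA libraries for paired-end sequencing and estimated transcript abundance by kallisto 0.46.1 on the Ensembl GRCh38 transcriptome, which tximport summarised to scaled TPM. In the deposited table, each gene symbol has a log2(TPM + 1) value. The logarithm was inferred from the values, since TPM converted back give nearly the same total in every library (985339 to 988066). TPM hold no counts, so depth is unknown and a count model could not be used. The authors' own tests used DESeq2 on counts, which were not used here. All 18 columns were matched to samples by label, and 0 columns had no sample. Libraries were grouped by line and cell variant.

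Group differences were computed from these values by the linear models of limma 3.58.1 (R 4.3.3, moderated with a mean-variance trend), fitting 6 group means to all 18 libraries, on the 16093 genes that reached 1 TPM in 3 or more libraries, two-sided, with Benjamini-Hochberg adjustment. The scripts were tested on simulated data. The members and gene lists were chosen with earlier results of these data known. Named beside the members and regulators are the up to 3 highest and 3 lowest genes of each list that passed without overlap at 10 TPM or more, for both clone comparisons and the parental cells, as well as the 5 genes most alike in course. Of these, a selection is printed, and GCLC in Panc89 was added, as the partner of GCLM, after its value was seen. Shared 31-base words were counted on GENCODE 44 transcripts. Replicate numbers were checked for pairing. Same-numbered libraries of a line correlated in their deviations from group means by -0.32 to 0.19 (mean -0.042, 18 pairs), so no pairing was used. Alternatives covered the constant added before the logarithm, the filter, the groups fitted, a replicate block, 2 scalings, a threshold on the fold change, summed AKR1C genes, AKR1B10 with AKR1B15, and leaving out each library. Running them on genes of the pathway lists was decided after seeing the data. Some results are not reported here.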

Additional observations from a re-analysis of the deposited data

Results flagged for a closer look

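The Holoclone against Paraclone change of NQO1 and of SLC7A11 differed between the lines in the test of the difference itself (limma, adjusted over all 16093 genes, of which 35.1% passed). It was greater in Panc89 by 2.47 for NQO1 (adjusted p = 2.13e-04) and by 2.06 for SLC7A11 (adjusted p = 0.00893). NQO1 passed in both lines, in opposite directions, though its Panc1 call was lost without Holoclone replicate 2 or Paraclone replicate 3. The differences of AKR1C1 (3.11), AKR1C2 (3.61) and AKR1C3 (0.94) passed as well, but these genes were under 1 TPM in all Panc1 libraries and above the filter through Panc89 alone, so the values restate their change in Panc89 and do not show that the lines respond differently. For AKR1C3 the value was 0.58 (adjusted p = 0.427) with 0.1 added before the logarithm, and the adjusted p was 0.0523 with the groups fitted alone.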

How the results depend on the processing

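The counts of NRF2 target genes that passed stayed within 1.5 times under most settings. With a log2 fold change over 1 also required, the count was 1 for Panc1 Holoclone against Paraclone, 0 for Panc1 Holoclone against parental, 1 for Panc1 Paraclone against parental and 2 for Panc89 Paraclone against parental cells. For Panc1 Holoclone against parental cells it was 0 with the groups fitted alone and under both scalings. Under both scalings it was 4 for Panc1 Paraclone and 2 for Panc89 Holoclone against parental cells, and without the filter it was 2 for either Panc89 clone against parental cells. With 1 library left out, the counts were 1 to 2 (Panc1 Holoclone against Paraclone), 6 to 7 (Panc89 Holoclone against Paraclone), 5 to 7 (difference of these changes, a count that includes the AKR1C genes, which were under 1 TPM in Panc1), 6 to 7 (parental cells), 7 to 8 (Holoclone cells), 6 to 8 (Paraclone cells), and, against parental cells, 0 to 1 and 2 to 3 (Panc1 Holoclone and Paraclone) and 2 to 6 and 2 to 4 (Panc89 Holoclone and Paraclone). The counts for parental, Holoclone and Paraclone cells are between the lines and include aldo-keto reductases. Those genes were under 1 TPM in Panc1 and above the filter through Panc89 alone. Of all genes, 66.0%, 65.8% and 60.7% passed in these comparisons. The replicate numbers did not pair the libraries. When these numbers were nevertheless entered as a block, separately for the lines, 2 genes passed between Panc1 clones, 7 between Panc89 clones and 5 in the difference of the changes.

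Single values near 0 changed sign, none of them past the threshold. Under upper quartile and median-of-ratios scaling these were SLC7A11 between Panc1 clones (-0.12 and -0.14), HMOX1 in the difference of the changes (0.069 and 0.064) and between Panc1 Holoclone and parental cells (-0.020 and -0.0053), and TXNRD1 between Panc89 Holoclone and parental cells (-0.029 and -0.026). GCLM between Panc89 clones was -0.018 under median-of-ratios scaling, and NQO1 between Holoclone cells was -0.0062 with the block. With 1 library left out, the ranges that crossed 0 were -0.27 to 0.042 for SRXN1 and -0.093 to 0.27 for SLC7A11 between Panc1 clones, -0.081 to 0.29 for GCLM between Panc89 clones, -0.46 to 0.22 for HMOX1 in the difference of the changes, -0.15 to 0.052 for GCLM, -0.12 to 0.16 for HMOX1 and -0.065 to 1.02 for SLC7A11 between Panc1 Holoclone and parental cells, -0.19 to 0.90 for SLC7A11 between Panc1 Paraclone and parental cells, and -0.21 to 0.16 for GCLM and -0.071 to 0.18 for TXNRD1 between Panc89 Holoclone and parental cells. The causes were not tested. Over all settings, 1007 values of the 10 genes kept direction and side of the threshold, 73 were lost, 35 were gained and 29 changed sign. The share of higher genes among all that passed moved from 25.6% to 47.4% and 53.0% for Panc1 Paraclone against parental, from 65.2% to 51.3% and 51.0% for Panc89 Holoclone against parental, and from 41.6% to 48.3% and 51.8% for the parental cells, under upper quartile and median-of-ratios scaling. Depth is unknown, so values under 1 TPM cannot be told from 0.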
